A study of Homo sapiens with 6 samples.

Results

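The genes described here are 10 members of the S100 family of small calcium-binding proteins, S100A8, S100A9, S100A12, S100A4, S100A6, S100A10, S100A11, S100A13, S100A14 and S100A16. They were taken by symbol from a table of 60612 gene identifiers, and all 10 were among the 17224 genes tested. RNA was measured in U937, an established human myeloid line that the labels call acute myeloid leukemia, with a wild-type genotype. Cells in serum-free RPMI-1640 were kept for 36 h with 1 µM B2, a compound known only by that code (3 libraries), or with the vehicle DMSO (3 libraries). Libraries carry replicate numbers 1 to 3 in each treatment, but no label states separate cultures, and the spread behind each p-value may therefore be technical. The series title names S100A9 as the target.

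S100 proteins carry EF-hand calcium sites and mostly work as dimers that change shape on binding calcium. S100A8 and S100A9 pair into calprotectin, a major cytosolic product of neutrophils and monocytes that binds zinc and manganese and, once released, acts as an alarmin on Toll-like receptor 4 and the receptor AGER. S100A12 is a close relative of the same alarmin group. S100A4, S100A6, S100A10 and S100A11 are broadly expressed and bind cytoskeletal proteins and annexins, S100A13 takes part in unconventional secretion of growth factors, and S100A14 and S100A16 are best known from epithelia.

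Library totals ran from 61150740 to 78431054 counts, and levels are given as CPM, the usual depth-scaled count, after TMM scaling. The 11 genes listed for myeloid identity of the line, among them the transcription factor SPI1 and the lectin CD33, were all tested and summed to 3790 to 6290 CPM. Over all genes the DMSO libraries were no more alike between numbers 1 and 2 (Pearson correlation across genes of log2 CPM 0.933) than between either and number 3 (0.948 and 0.941), while B2 replicates 1 and 2 (0.976) were more alike than either was to B2 replicate 3 (0.956 and 0.952). Across all genes, 2.68% of those tested differed between replicate numbers (edgeR quasi-likelihood F test over the numbers, Benjamini-Hochberg adjusted p below 0.05), and 2.14% did so with their highest level in number 3. The share depended on the processing and ran from 266 to 4124 genes under the alternatives, against 461. Between B2 and DMSO the share was 0% of 17224 genes by the same kind of test, with 85 genes (0.493%) at an unadjusted p below 0.05. The labels leave unsaid what a replicate number stands for.

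The starts of S100A9, S100A8 and S100A12 are shown because these genes had the same pattern over the 6 libraries, and that of S100A14 because it had another. Each line gives the 250 bases before the annotated start, 5′ to 3′ on the gene's strand (RefSeq, GRCh38.p14), and all 10 members had such a window.
S100A9, chr1:153357604-153357853, plus strand: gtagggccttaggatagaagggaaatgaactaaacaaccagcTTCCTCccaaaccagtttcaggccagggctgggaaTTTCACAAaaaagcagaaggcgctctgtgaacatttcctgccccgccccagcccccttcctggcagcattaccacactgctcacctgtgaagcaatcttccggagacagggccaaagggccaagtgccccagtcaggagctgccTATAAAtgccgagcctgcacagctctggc
S100A8, chr1:153391189-153391438, minus strand: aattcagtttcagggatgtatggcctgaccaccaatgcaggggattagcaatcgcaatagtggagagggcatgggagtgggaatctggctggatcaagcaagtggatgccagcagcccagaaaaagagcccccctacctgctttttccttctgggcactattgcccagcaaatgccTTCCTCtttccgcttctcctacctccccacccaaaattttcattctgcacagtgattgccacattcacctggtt
S100A12, chr1:153375622-153375871, minus strand: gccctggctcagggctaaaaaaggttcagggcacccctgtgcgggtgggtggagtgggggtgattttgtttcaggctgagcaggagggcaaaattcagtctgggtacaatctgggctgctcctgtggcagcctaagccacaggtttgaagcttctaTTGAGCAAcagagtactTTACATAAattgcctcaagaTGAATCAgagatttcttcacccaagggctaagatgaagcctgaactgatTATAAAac
S100A14, chr1:153616326-153616575, minus strand: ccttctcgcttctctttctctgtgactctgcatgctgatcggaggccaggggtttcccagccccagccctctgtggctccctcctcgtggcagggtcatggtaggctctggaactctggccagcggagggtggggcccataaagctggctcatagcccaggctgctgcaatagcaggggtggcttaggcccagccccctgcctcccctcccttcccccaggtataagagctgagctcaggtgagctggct
Capitals mark matches on either strand to 5 motifs. These were TTNNGNAA for C/EBP, GAGGAA for PU.1, TGANTCA for AP-1, TTCNNNGAA for STAT and TATAAA for a TATA box, and no match overlapped another in these lines. The S100A9 window held a PU.1 match, a C/EBP match and TATAAA 29 bases before the start. The S100A8 window held 1 match, to PU.1, 74 bases before the start, while the windows of the other two annotated S100A8 starts, which are not shown, held TATAAA and C/EBP matches. The S100A12 window held 2 C/EBP matches, 1 AP-1 match and TATAAA, and the S100A14 window held none of the 5. At the 1 start used for each member, C/EBP letters were found in 5 of 10 (S100A9, S100A12, S100A6, S100A11 and S100A16) and in 33.2% of 34943 windows of this length, PU.1 letters in 2 of 10 and 23.6%, AP-1 letters in 1 of 10 and 6.59%, STAT letters in 0 of 10 and 6.56%, and TATAAA in 4 of 10 and 10.8%. These are letters in a window and not measured binding.

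The alarmin genes separated the libraries numbered 3 from the rest and did not separate B2 from DMSO. S100A9 (ENSG00000163220, chromosome 1, 153357854 to 153361027, plus strand) read 25.5, 20.2 and 670 CPM in B2 replicates 1, 2 and 3, against 37.1, 17.6 and 603 CPM in DMSO replicates 1, 2 and 3. Both libraries numbered 3 were high and the 4 others low, while the treatments overlapped. The mean in number 3 was 25.4-fold that of numbers 1 and 2, a log2 difference of 4.71 with a standard error (SE) of 0.27 (edgeR adjusted p over the numbers = 5.43e-06). S100A8 (ENSG00000143546, chromosome 1, 153390032 to 153391188, minus strand), the calprotectin partner, read 0.921, 1.05 and 50.2 CPM under B2 against 0.914, 1.03 and 34.1 CPM under DMSO. It was near 1 CPM in every library numbered 1 or 2 and 43.0-fold higher in number 3, a log2 difference of 5.41 (SE 0.30, edgeR adjusted p = 5.43e-06).

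S100A12 (ENSG00000163221, chromosome 1, 153373706 to 153375649, minus strand), which encodes the alarmin also called EN-RAGE, followed the same pattern at a much lower level. It read 0.379, 0 and 4.52 CPM under B2 against 0.251, 0.245 and 4.23 CPM under DMSO. The libraries numbered 3 held 274 and 328 counts and the 4 others 0 to 28, so the low values rest on few counts. The log2 difference was 4.53 (SE 0.69, edgeR adjusted p = 0.00802). The S100A12 call was lost with library totals as the only scaling (adjusted p = 0.0876), with DESeq2 (adjusted p = 0.1) and without DMSO replicate 1 (edgeR adjusted p = 0.0878), and the size was 7.57 without DMSO replicate 2. S100A8, S100A9 and S100A12 were thus the 3 of 10 members that differed between numbers, against 2.68% of all genes. That S100A8 and S100A9 were high in number 3 was known from earlier results of these data when the members were chosen.

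**Figure D1:**
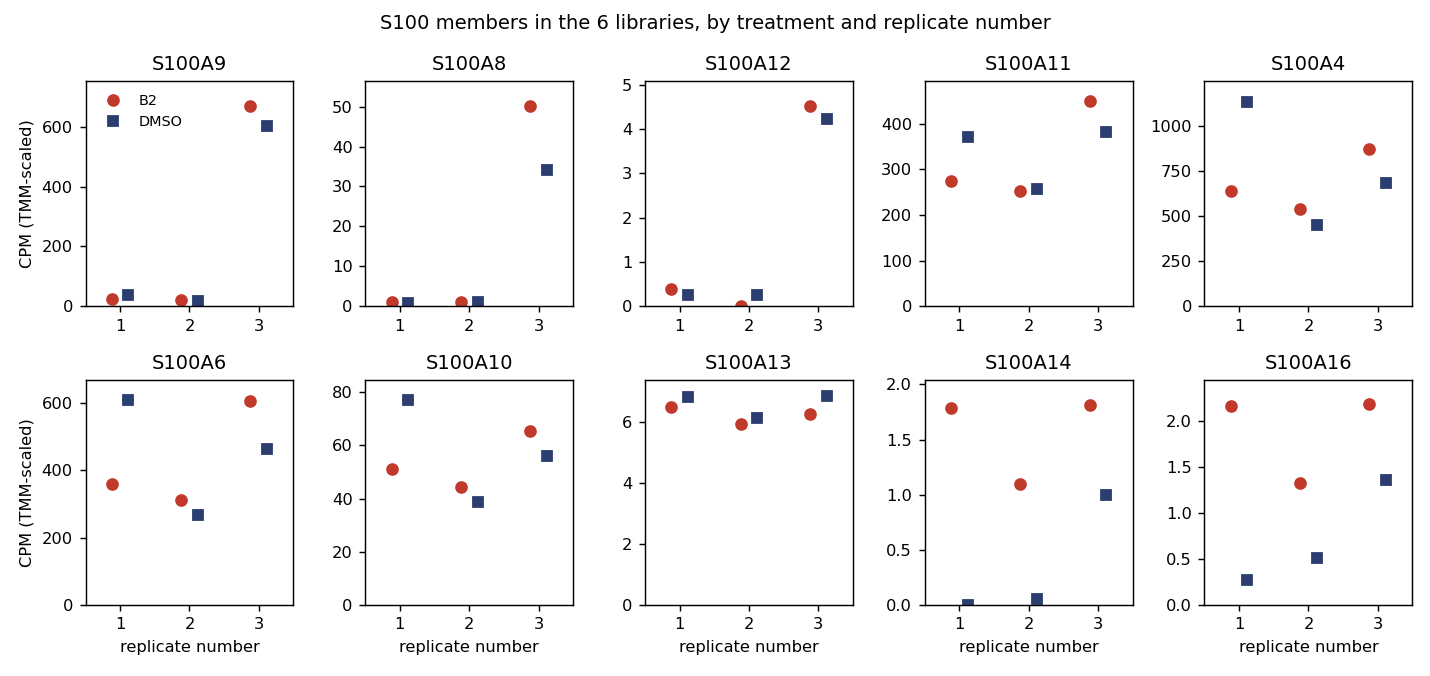
TMM-scaled CPM of each S100 member (y axis from 0) against replicate number (x axis), with red circles for B2 and blue squares for DMSO, 1 point per library. S100A9, S100A8 and S100A12 are high in both libraries numbered 3, S100A4, S100A6 and S100A10 are highest in DMSO replicate 1, and S100A14 is lowest in DMSO replicates 1 and 2.

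Within each number the treatments lay close for calprotectin. The ratio of B2 to DMSO for S100A9 was 0.687 in number 1, 1.15 in number 2 and 1.11 in number 3, and for S100A8 it was 1.01, 1.02 and 1.47. S100A8 was higher with B2 in 3 of 3 pairs, as were 6.71% of all genes. Without a term for the number the 95% interval of the S100A9 difference reached from -3.41 to 3.65 on the log2 scale, since the libraries numbered 3 set the spread. With the replicate number as a block the S100A9 interval was -0.62 to 0.49 around -0.06, and that of S100A8 was -0.40 to 0.84 around 0.22 (edgeR adjusted p = 1 for both). For S100A12 the blocked interval was wider, -2.10 to 1.02 around -0.54, and in number 2 it was at least 5.96-fold lower with B2, where no count was listed, taking 3 counts in that library as the floor.

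The broadly expressed members with large counts did not follow S100A9. S100A4 (ENSG00000196154, chromosome 1, 153543613 to 153550136, minus strand), a motility factor that binds non-muscle myosin, read 640, 538 and 868 CPM in B2 replicates 1, 2 and 3 and 1129.5, 448 and 681 CPM in the DMSO replicates. Its highest library was DMSO replicate 1, and numbers and treatments overlapped (log2 difference of number 3 from numbers 1 and 2 of 0.24, SE 0.29, edgeR adjusted p = 0.285). S100A6 (ENSG00000197956, chromosome 1, 153534599 to 153536244, minus strand), also called calcyclin, read 358, 310 and 606 CPM under B2 against 608, 268 and 463 CPM under DMSO. DMSO replicate 1 and B2 replicate 3 were its highest libraries, and it did not pass the test over numbers (0.52, SE 0.29, edgeR adjusted p = 0.238).

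S100A10 (ENSG00000197747, chromosome 1, 151982915 to 151994390, minus strand), the partner of annexin A2 at the plasma membrane, read 50.9, 44.4 and 65.4 CPM under B2 against 77.2, 38.8 and 55.9 CPM under DMSO. DMSO replicate 1 was again the highest library and DMSO replicate 2 the lowest (0.24, SE 0.28, edgeR adjusted p = 0.412). S100A11 (ENSG00000163191, chromosome 1, 152032506 to 152047907, minus strand), which binds annexin A1, read 274, 251 and 450 CPM under B2 against 371, 256 and 381 CPM under DMSO. Both libraries numbered 3 lay above the 4 others, by little over DMSO replicate 1, and the test over numbers was not passed (0.55, SE 0.25, edgeR adjusted p = 0.310). S100A11 was the 1 member besides S100A8, S100A9 and S100A12 with both libraries numbered 3 on top, a pattern of 12.3% of all genes. The table also lists 9 S100 pseudogenes, which held 1 count in all.

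The within-number ratios of these genes moved together. B2 over DMSO was 0.566, 0.589, 0.660 and 0.740 in number 1 for S100A4, S100A6, S100A10 and S100A11, and 1.27, 1.31, 1.17 and 1.18 in number 3. In number 2 the same ratios were 1.20, 1.16, 1.14 and 0.982. Number 1 thus went in the other direction from number 3 for each of them, and DMSO replicate 1 had the lowest scaling factor of the 6 libraries (0.862, against 0.99 to 1.07). The reference genes ACTB, GAPDH, B2M and PPIA also summed highest in DMSO replicate 1, at 22900 CPM against 14000 to 18800 CPM elsewhere. Whether these features have a part in the ratios was not tested.

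Without B2 replicate 1, number 1 rested on DMSO replicate 1 alone. The difference of number 3 was then -0.04 for S100A4 and 0.03 for S100A10, against 0.24 for each with all 6 libraries. For S100A6, S100A11 and S100A14 it was 0.25, 0.40 and 5.37, against 0.52, 0.55 and 2.63. The cause of these shifts was not tested. The S100A4 difference also lay below 0 without B2 replicate 3 (-0.09).

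S100A13 (ENSG00000189171, chromosome 1, 153618787 to 153631360, minus strand), which helps export fibroblast growth factor 1, varied least of the 10. It read 6.49, 5.94 and 6.26 CPM under B2 against 6.83, 6.13 and 6.84 CPM under DMSO. B2 was below DMSO in 3 of 3 pairs, with ratios of 0.951, 0.969 and 0.915, as in 9.12% of all genes (log2 fold change -0.08, SE 0.28, edgeR adjusted p = 1). Its exons overlap a same-strand gene, ENSG00000271853, and S100A1 on the other strand, so its counts are uncertain.

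S100A14 and S100A16, neighbours on the minus strand 1.11 kb apart, had another pattern, at low levels. S100A14 (ENSG00000189334, chromosome 1, 153614255 to 153616986) read 1.79, 1.10 and 1.82 CPM under B2 against 0, 0.0515 and 0.992 CPM under DMSO. Each B2 library lay above each DMSO library, which 1.94% of all genes showed (1.63% lay wholly below, among them no member), and DMSO replicate 3 lay close to B2 replicate 2. In counts it had 132, 80 and 110 with B2 and 0, 4 and 77 with DMSO, and 4 of 6 libraries reached 10 counts, all 3 B2 libraries among them, so it passed the filter on low counts through the group where it was high. B2 was at least 33.3-fold higher than DMSO in number 1, 21.3-fold in number 2 and 1.83-fold in number 3.

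S100A16 (ENSG00000188643, chromosome 1, 153606886 to 153613145) read 2.17, 1.33 and 2.20 CPM under B2 against 0.269, 0.515 and 1.37 CPM under DMSO. The groups overlapped, since DMSO replicate 3 lay just above B2 replicate 2. The ratio of B2 to DMSO was 8.07, 2.58 and 1.61 in numbers 1, 2 and 3, so for both genes the difference was smallest in number 3. Neither passed the test over all genes. The log2 fold change was 2.15 (SE 1.24) for S100A14 and 1.40 (SE 0.61) for S100A16, and with the replicate block 3.51 (SE 0.99, 95% interval 1.34 to 5.69, edgeR adjusted p = 1) and 1.62 (SE 0.50, interval 0.53 to 2.72, edgeR adjusted p = 1).

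Between B2 and DMSO 0 of 10 members passed edgeR or limma-voom. DESeq2 gave no p for S100A8 and S100A9, and 0 of the 8 other members passed it. At an unadjusted p below 0.05 there were 0 members with edgeR. There were 2 with limma-voom (S100A14 and S100A16, beside 0.882% of all genes) and 1 of 8 with DESeq2 (S100A16, beside 0.584% of genes given a p). The edgeR replicate block gave 2 (S100A14 and S100A16, beside 1.32% of all genes). S100A14 passed the filter on low counts through the B2 libraries, where it was high, so no support is drawn from its place in these counts. With both libraries numbered 3 left out, S100A14 was kept by the filter only through the B2 libraries, since DMSO then held 0 and 4 counts. Its log2 fold change on those 4 libraries was 5.58 without the block (edgeR adjusted p = 1, 0 genes called) and 5.64 with it (edgeR adjusted p = 2.79e-05, 48 genes called), so the call rests on the block. Its log2 fold change was 5.70 without DMSO replicate 3, and 1.58 and 1.64 without DMSO replicates 1 and 2. That of S100A16 was 2.26 without DMSO replicate 3. For S100A8, S100A9, S100A4, S100A6, S100A10, S100A11 and S100A13 the blocked 95% intervals lay between -0.68 and 0.84. A member's p above the threshold does not show that B2 left it unaltered.

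**Figure D2:**
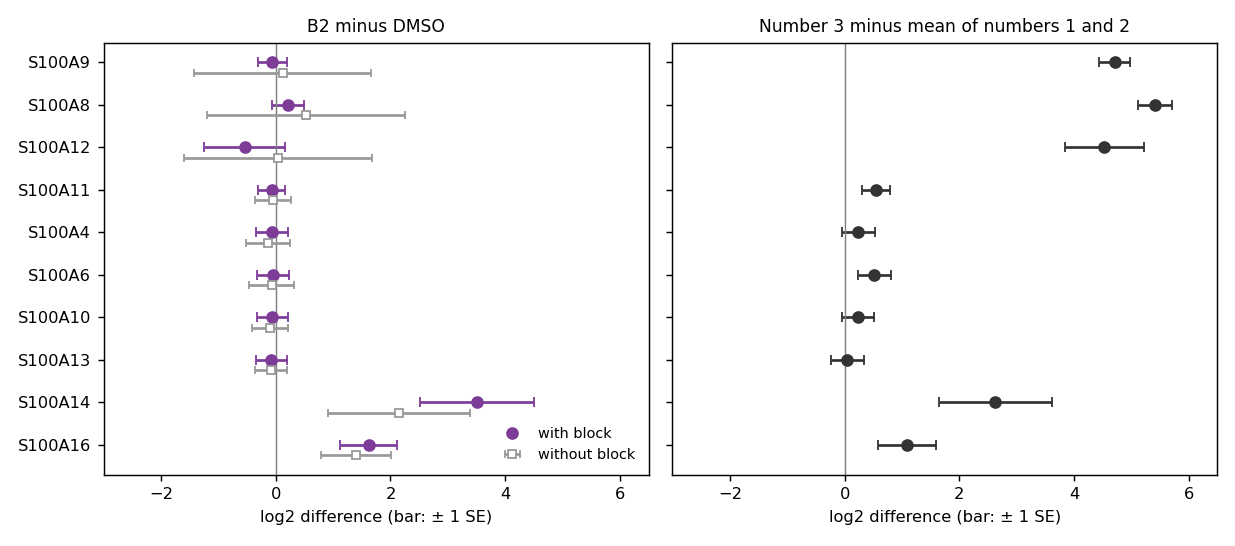
Log2 differences of the 10 members with ± 1 SE from edgeR. The left panel shows B2 minus DMSO with the replicate block (filled circles) and without it (open squares), the right panel number 3 minus the mean of numbers 1 and 2. S100A9, S100A8 and S100A12 lie between 4.53 and 5.41 in the right panel and, with the block, between -0.54 and 0.22 in the left panel, where S100A14 (3.51) and S100A16 (1.62) are highest.

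Lists of marker genes for other cell types were read beside both patterns. In bulk RNA, fewer cells of a type and less RNA per cell cannot be told apart. Of the 17 macrophage and monocyte markers 14 were tested, and 10 differed between numbers, all higher in number 3, beside 2.14% of all genes. LYZ and FCN1 were also higher in number 3, without a call (edgeR adjusted p = 0.0604 and 0.0826). VCAN was level (log2 difference 0.09). APOE went the other way, with 0.858 and 0.438 CPM in number 3 and 0.915 to 2.32 CPM elsewhere (edgeR adjusted p = 0.15). The summed level of the list was 3570 and 3440 CPM in the libraries numbered 3 and 614 to 1100 CPM in the 4 others. LYZ alone gave 1801 and 1472 CPM of this in number 3 and 382 to 968 CPM in the 4 others. MRC1, the mannose receptor, was at 0 in all 6. Of 16 neutrophil markers 11 were tested and 2 differed (the gelatinase MMP9 and CEACAM8, higher in number 3), beside 2.14% of all genes. Of the 11 tested, 4 had both libraries numbered 3 above the others, beside 12.3% of all genes. Another 2 had both below, beside 12.1% of all genes. The Fc receptor FCGR3B, a defining neutrophil gene, stayed at or below 0.314 CPM, with counts only in number 3 (19 and 6). ARG1 was at 0. MMP8, which was not tested, held 133 and 219 counts in number 3 and 0 to 8 in the others. CAMP was higher in number 3 without a call (edgeR adjusted p = 0.136). CSF3R read 265 to 408 CPM in every library (edgeR adjusted p = 0.609). CXCR2 had a log2 difference of 0.11 (edgeR adjusted p = 0.49). LTF, with 0 to 23 counts per library, went the other way without a call (-0.74, edgeR adjusted p = 0.927). The median log2 difference of the 11 tested was 0.11 beside -0.05 for all genes. The neutrophil list summed to 1490 to 2740 CPM with its highest value in DMSO replicate 1. The part of these markers in the S100A8 and S100A9 levels was not tested.

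Of 15 epithelial markers 14 were tested, 0 passed between B2 and DMSO by edgeR, with or without the replicate block. At an unadjusted p below 0.05 there were 0 without the block and 6 with it (KRT7, KRT8, KRT18, KRT19, CLDN7 and ELF3, named after their values were seen), beside 1.32% of all genes. Of the 14 markers 13 were positive without the block, with a median log2 fold change of 1.09 beside -0.08 for all genes. Their summed level was 48.0, 47.5 and 62.4 CPM in B2 replicates 1, 2 and 3 and 10.1, 21.2 and 45.5 CPM in the DMSO replicates, low in the same libraries as S100A14 and S100A16. None of these markers was at 0 in every library. Of 9 fibroblast markers 4 were tested, with sums of 8.54 to 12.2 CPM and THY1 at 0, and of 13 T and B cell markers 7 were tested, with sums of 194 to 399 CPM and CD3D, CD3E, CD3G and MS4A1 at 0. The part of the epithelial genes in the S100A14 and S100A16 levels was not tested.

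**Figure D3:**
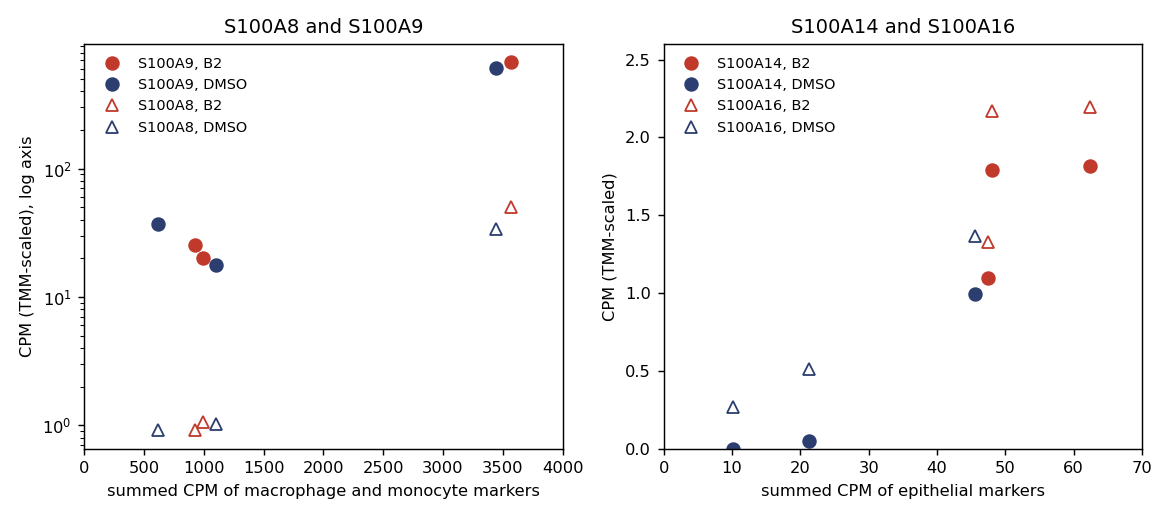
CPM of S100A8 and S100A9 (left, log axis) against the summed CPM of macrophage and monocyte markers, and CPM of S100A14 and S100A16 (right, linear axis) against the summed CPM of epithelial markers, 1 point per library with B2 in red and DMSO in blue. On the left the libraries numbered 3 lie at 3440 and 3570 CPM and on top, and on the right DMSO replicates 1 and 2, at 10.1 and 21.2 CPM, hold the lowest points.

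Levels were compared between genes as CPM per kb of annotated exon (GENCODE 29). In the 4 libraries numbered 1 or 2, S100A4 led the family at 437 to 1102 CPM per kb, followed by S100A11 (370 to 545) and S100A6 (276 to 626), whose ranges overlapped each other and that of S100A4. S100A9 stood there at 30.6 to 64.3 CPM per kb and overlapped S100A10 at 25.2 to 50.02. In number 3 the order per kb changed. S100A9 read 1162 CPM per kb with B2 and 1046 with DMSO, above S100A4 at 847 and 665. In CPM without the length S100A9 stayed below S100A4 there, at 670 against 868 with B2 and 603 against 681 with DMSO. The order thus rests on annotated exon lengths of 577 bases for S100A9 and 1025 for S100A4. Among all tested genes S100A9 ranked 33rd and 35th per length in number 3, against ranks 883 to 1442 elsewhere. S100A8 ranked 945th and 1449th in number 3 and between 10174 and 11014 in the other libraries.

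Of the summed CPM per kb of the 21 S100 genes listed, S100A9 held 31.8% in B2 replicate 3 and 34.8% in DMSO replicate 3, and 2.39% to 2.69% in the other 4 libraries. The share of S100A4 was 23.2% and 22.1% in number 3 and 34.2% to 41.3% elsewhere. All these shares depend on the annotated exon lengths. The share of S100A4 was thus lower in number 3 although its own CPM was not, since shares sum to a whole. S100A8 amounted to 4.30% and 3.24% of the S100A9 level per kb in number 3, and to 1.41% to 3.35% in the others. S100A9 RNA therefore exceeded that of its dimer partner in every library.

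**Figure D4:**
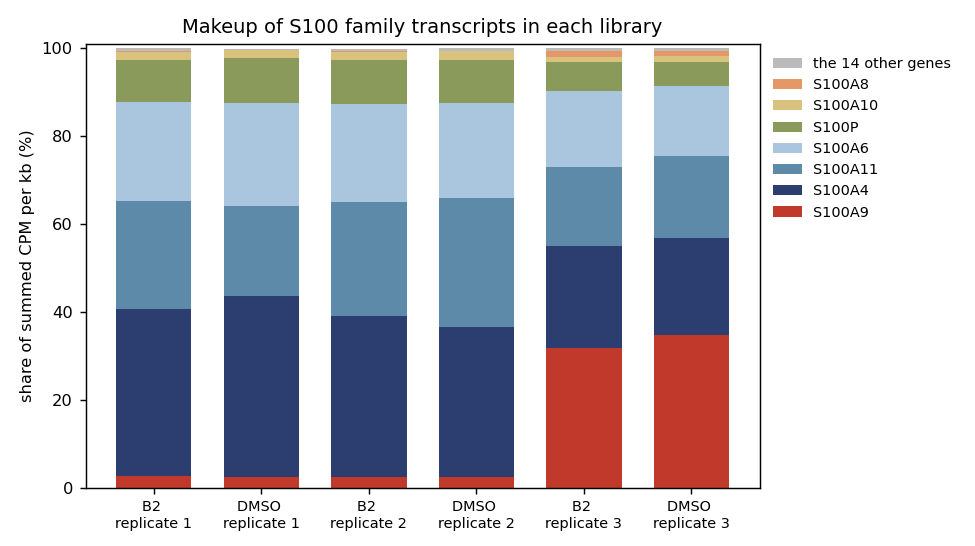
Stacked bars of the share of summed CPM per kb (y axis, %) held by each S100 gene in the 6 libraries, ordered by replicate number. S100A9, at the bottom in red, holds 31.8% and 34.8% in the libraries numbered 3 and at most 2.69% in the others.

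The 11 other S100 genes listed gave no call in either test. Of these 6 were tested, and S100A7A, S100A7L2, S100G and S100Z were at 0 in every library, where 3 counts would read 0.0386 to 0.0537 CPM. S100P, encoded on chromosome 4, was the most abundant at 199, 184 and 314 CPM under B2 against 344, 161 and 210 CPM under DMSO. DMSO replicate 1 was its highest library, as for S100A4 (log2 difference of number 3 of 0.28, SE 0.30, edgeR adjusted p = 0.397). S100B, the glial and dendritic cell family member encoded on chromosome 21, read 3.27, 2.52 and 6.70 CPM under B2 against 2.85, 2.27 and 6.78 CPM under DMSO. Both libraries numbered 3 lay above the others, and it did not pass (1.32, SE 0.29, edgeR adjusted p = 0.0688). S100A2 and S100A3 also had both libraries numbered 3 on top, at no more than 2.58 CPM (edgeR adjusted p = 0.428 and 0.427), and S100A5 stayed at or below 0.358 CPM. Number 3 was on top in 3 of these 6 genes, beside 12.3% of all genes.

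The members that differed between numbers sit side by side on chromosome 1. S100A9, S100A12 and S100A8 lie within 33.3 kb, which held no other tested gene, and the next listed member, S100A6, begins 143 kb beyond S100A8. In the window from 100 kb before the first member to 100 kb after the last (151882915 to 153731360), 23 genes were tested. Of the 14 S100 genes there 3 differed between numbers, and of the 9 other genes 0 did, beside 2.68% of all genes. With so low a share, 0 of 9 does not set these genes apart. The 9 had a median log2 difference of -0.40 beside -0.05 for all genes. Among those 9, both libraries numbered 3 lay below the rest for 4, beside 12.1% of all genes, and above it for 1, beside 12.3%. S100A6, S100A4, S100A16, S100A14 and S100A13, further along the same region, had differences of 0.52, 0.24, 1.09, 2.63 and 0.05, none past the threshold. Without DMSO replicate 3 those of S100A14 and S100A16 were both 0.32.

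**Figure D5:**
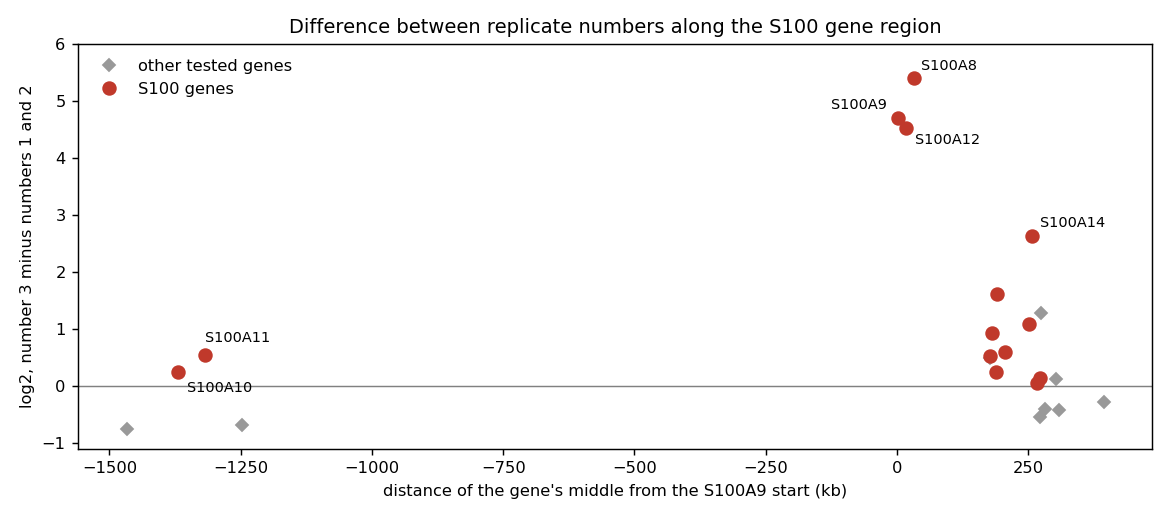
Log2 difference of number 3 from numbers 1 and 2 (y axis) for the 23 tested genes of the region against the distance of each gene's middle from the S100A9 start in kb (x axis), S100 genes as red circles and others as grey diamonds. S100A9, S100A12 and S100A8 stand together at 4.53 to 5.41. The 9 genes that are not S100 genes include none that passed the test, which 2.68% of all genes did.

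Genes for receptors of S100 proteins partly shared the pattern. Of 14 listed, 12 were tested and 5 differed between numbers, all higher in number 3, beside 2.14% of all genes. The list median was 0.58. CD14 and CD68 are also among the macrophage and monocyte markers counted above, so the lists are not separate observations. CD14, the lipopolysaccharide co-receptor, read 0.772, 0.616 and 121 CPM under B2 against 1.29, 0.361 and 110 CPM under DMSO (edgeR adjusted p = 2.27e-06). The scavenger receptor CD36 read 9.80, 14.4 and 107 CPM under B2 against 16.1, 13.4 and 176 CPM under DMSO (edgeR adjusted p = 8.1e-05). CD68, a lysosomal macrophage protein whose exons overlap another gene, the lectin CD69 and the TLR4 cofactor LY96, which was named after its values were seen, were the others.

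TLR4 itself, the alarmin receptor, did not follow. It read 22.5, 35.3 and 40.8 CPM under B2 against 23.3, 56.7 and 47.1 CPM under DMSO, with its highest value in DMSO replicate 2 (edgeR adjusted p = 0.170), and its exons overlap another gene. The sialic acid receptor CD33 read 89.9, 86.0 and 88.1 CPM under B2 against 115, 93.3 and 97.1 CPM under DMSO. Its B2 libraries all lay below its DMSO libraries, as in 1.63% of all genes, and neither test was passed (edgeR adjusted p = 1 between treatments and 0.883 over numbers). Between B2 and DMSO 0 of the 12 passed (0 at an unadjusted p below 0.05), with 3 positive and 9 negative and a median of -0.16 beside -0.08 for all genes.

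Among 17 partner proteins 16 were tested and 4 differed between numbers, beside 2.68% of all genes. Those described here are NCF1 and CYBB, subunits of the phagocyte oxidase, to whose complex calprotectin delivers arachidonic acid, and the scaffold AHNAK, a ligand of the S100A10 and annexin A2 complex, named after its values were seen. NCF1 read 26.8, 30.6 and 335 CPM under B2 against 39.0, 23.0 and 300.5 CPM under DMSO (edgeR adjusted p = 5.73e-05), and near-identical copies of it make its counts uncertain. CYBB read 45.6, 87.5 and 383 CPM under B2 against 35.9, 171 and 357 CPM under DMSO (edgeR adjusted p = 0.0011). AHNAK was highest in number 2, at 465 and 628 CPM against 89.9 to 263 CPM elsewhere (edgeR adjusted p = 0.0403), a pattern of called genes that made up 0.447% of all genes. Among the annexins, ANXA1 read 31.4, 28.1 and 55.0 CPM under B2 against 38.8, 33.7 and 82.0 CPM under DMSO (edgeR adjusted p = 0.106, not past the threshold), and ANXA6 did not either (edgeR adjusted p = 0.394). Between B2 and DMSO 0 of 16 passed (0 at an unadjusted p below 0.05), with a median of -0.12.

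For S100A8 and S100A9, 18 regulators were listed and 17 tested. Beside 2.14% of all genes, 2 differed between numbers, both higher in number 3. Of these IRF7, an interferon regulatory factor, read 10.4, 9.08 and 99.8 CPM under B2 against 15.3, 9.13 and 88.8 CPM under DMSO (edgeR adjusted p = 0.000133). CEBPB, a C/EBP factor of myeloid cells, read 125, 112 and 252 CPM under B2 against 160.0, 99.96 and 273 CPM under DMSO and just missed the threshold (edgeR adjusted p = 0.0669), while JUNB, an AP-1 subunit, and NR3C1, the glucocorticoid receptor, did not separate the numbers (edgeR adjusted p = 0.236 and 0.165). KLF5 stayed at or below 0.772 CPM. Between B2 and DMSO 0 of 17 passed (0 at an unadjusted p below 0.05), with a median of -0.13.

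The genes nearest to S100A9 over the 6 libraries, by Euclidean distance of centred log2 CPM, were IFI6 (distance 0.39), IL4I1 (0.47), C3 (0.52), PTCRA (0.58) and SLC26A11 (0.67). IFI6, an interferon-inducible gene, read 83.1, 66.6 and 1628 CPM under B2 against 119, 57.8 and 1726 CPM under DMSO. C3, the central complement component, read 30.6, 20.1 and 516 CPM under B2 against 41.8, 20.3 and 626 CPM under DMSO. In both genes the 2 libraries numbered 3 were high and DMSO replicate 1 lay above the other 3, as in S100A9. Their choice by nearness to S100A9 fixed this likeness in advance. Exons of IL4I1 and SLC26A11 overlap other genes. On the same measure S100A8 lay at 1.25 from S100A9, nearer than all but 0.0871% of tested genes, and S100A12 at 2.84 (0.888%). The 7 other members lay at 4.84 to 6.04, with 10.7% to 70.3% of genes nearer.

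The genes nearest to S100A14 were SELENBP1 (0.66), a selenium-binding protein, SUSD2 (0.96), DHRS2 (0.98), GRB7 (1.44), an adaptor of receptor tyrosine kinases, and PROM2 (1.45). SELENBP1 read 1.10, 0.726 and 1.27 CPM under B2 against 0, 0.0515 and 0.812 CPM under DMSO. DHRS2, a short-chain dehydrogenase, read 7.05, 7.46 and 6.79 CPM under B2 against 0.179, 0.271 and 5.50 CPM under DMSO. All 5 were lowest in DMSO replicates 1 and 2, which follows from their choice by nearness to S100A14. Their DMSO replicate 3 reached 0.515 to 5.50 CPM. In SELENBP1, SUSD2, GRB7 and PROM2 only 4 libraries reached 10 counts, all 3 B2 libraries among them. These genes thus passed the filter on low counts through the B2 libraries. None of the 5 passed between B2 and DMSO (edgeR adjusted p = 1 for each).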

How the data were processed

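RNA sequencing covered 6 U937 libraries, 3 with B2 and 3 with DMSO. In 1 table the authors deposited estimated counts (expected counts) for each gene, without normalization. HISAT2 2.0.4 is named in the submitters' processing notes. Which counter, build, annotation or strand option was used is not given in the sources used here. Values were already whole, so rounding changed nothing, and the value 4 occurred 6465 times against 3144 for 3 and 2022 for 5, so small counts are inexact. Symbols came from a gene name table (60401 identifiers) or GENCODE 29 (187 more). Positions are GRCh38 from GENCODE 29, not from the authors' file.

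Genes were kept by filterByExpr (minimum count 10, minimum total 15), which left 17224, and tested with edgeR 4.0.16 under R 4.3.3 (TMM factors, glmQLFit, glmQLFTest) with Benjamini-Hochberg adjustment over all of them and a threshold of 0.05. The treatment fit held treatment only. The fit over replicate numbers held treatment and number. Every adjusted p is edgeR's unless another tool is named. SE came from the coefficient and its F statistic. Log2 CPM for distances used a prior count of 2. Alternatives were RLE, upper-quartile and no factors, no filter, a minimum count of 50, DESeq2 1.42.0, limma-voom (limma 3.58.1), counts divided by 4, the block, number 3 left out, no treatment term and each library left out. The tests were also run on simulated counts with known changes. For the treatment test these counts held no difference between numbers, unlike the data, so no support is drawn from them.

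After subtraction of the treatment mean, libraries sharing a number correlated at 0.21, 0.40 and 0.50 for numbers 1, 2 and 3. The numbers were therefore taken to pair libraries, which comes from the data and not the labels. Libraries with different numbers were not set beside these values. In log2 CPM across genes, B2 replicate 1 was nearer to DMSO replicate 2 (0.964) than to DMSO replicate 1 (0.959). B2 replicates 2 and 3 were each nearest, among the DMSO libraries, to the one of their number (0.973 and 0.976). The pairing is thus least certain for number 1, and within-number ratios and blocked intervals depend on it. Named genes were all members, then of each list the 3 genes with the smallest p in either test, then the 5 nearest to S100A9 and to S100A14; of these the text prints a part, and some listed genes are not reported here. Members, lists and the rule were chosen with earlier results of these data known.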

Additional observations from a re-analysis of the deposited data

How the results depend on the processing

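Between B2 and DMSO, 0 of 10 members and 0 of all genes were called, and 0 of each were called with the replicate block, which changed no call. The other exceptions were 1 gene with DESeq2 on the filtered genes, 0 to 1 without 1 library, and 48 genes with 1 member, S100A14, without both libraries numbered 3 and with the block. Direction turned with library totals only for S100A6 (0.04), S100A10 (0.01) and S100A11 (0.04). It turned with limma-voom for S100A9 (-0.10) and S100A12 (-1.81), with the block (-0.06 and -0.54), without number 3 (-0.26 and -0.38) and without number 3 with the block (-0.17 and -1.66). Without 1 library the log2 fold changes ran from -3.60 to 4.16 for S100A8, -3.27 to 3.13 for S100A9 and -3.05 to 2.71 for S100A12, each lowest without B2 replicate 3 and highest without DMSO replicate 3. They ran from -0.44 to 0.29 for S100A4, -0.42 to 0.23 for S100A6, -0.34 to 0.19 for S100A10 and -0.36 to 0.11 for S100A11. S100A14 and S100A16 stayed positive in all 17 settings, and S100A13 was negative in 16 and 0.00 with library totals only. Over numbers, the 461 genes called became 956 with RLE factors, 1168 with upper-quartile factors, 266 with library totals only, 2110 with a minimum count of 50, 1686 with DESeq2, 1278 with limma-voom, 1675 with counts divided by 4 and 388 to 4124 without 1 library (lowest without DMSO replicate 3, highest without B2 replicate 1; 1726 without B2 replicate 2). Called members were 2 to 3 under the other settings and 2 to 8 without 1 library, with S100A8 and S100A9 among them in all 15. S100A4 ran from -0.09 to 0.59 there. S100A14 was called over numbers with a minimum count of 50 (2.49) and without B2 replicate 1 (5.37) or B2 replicate 3 (5.07), against 2.63, and read 0.97 with limma-voom and 0.32 without DMSO replicate 3, not called. S100A12 gave no value with a minimum count of 50 or counts divided by 4, since the filter removed it. For the remaining differences the cause was not tested. Counts near 3 per library, or 0.0386 to 0.0537 CPM, limit S100A12 and S100A14.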
